A study of Mus musculus with 4 samples.

Results

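The genes described here are the surface markers used to sort mouse haematopoietic stem cells (HSC) and the markers commonly used to tell these cells from their nearest progeny. The list holds 10 genes, Slamf1, Cd48, Kit, Cd244, Ly9, Flt3, Cd34, Procr, Ctnnal1 and Fgd5, out of 18193 genes represented on the array. Members were taken by name, from probe sets whose platform annotation lists exactly 1 gene symbol, and this gave 15 probe sets. Cd244 is annotated as Cd244a and was matched through its RefSeq synonym. For each gene the probe set that is brightest on average over the 4 arrays is the main value, and 4 of the genes had further, dimmer probe sets.

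The study compared 2 Rb family deficient pools (genotype label Rb -/- p130 -/- p107-/-) with 2 wild type pools (genotype label Rb +/+ p130 +/+ p107-/-) on Affymetrix arrays. The p107 allele is therefore -/- in both groups by label, and the groups differ in Rb and p130. Recombination had been triggered in adult animals with tamoxifen, and cells were sorted by flow cytometry 2 weeks later with a KLS CD48- CD150+ gate, each sample being a pool of 3 mice. The driver of the recombinase, the age of the animals and whether a mouse entered more than 1 pool do not appear in the labels, so p-values measure the spread between these pools.

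In adult mouse marrow, KLS cells lack mature lineage antigens and carry c-Kit and Sca-1. Within that compartment, receptors of the signalling lymphocytic activation molecule (SLAM) family separate stem cells, which carry CD150 (Slamf1) and lack CD48, from multipotent progenitors, which gain CD48 and CD244. FLT3 and CD34 appear on the surface as long-term stem cells give rise to multipotent progenitors, while EPCR (Procr), alpha-catulin (Ctnnal1) and the exchange factor FGD5 mark stem cells. The gate acts on surface protein, and the arrays measure mRNA. In RNA from a pool of sorted cells, fewer cells that carry a transcript and less transcript per cell cannot be told apart.

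Values are log2 expression, as deposited, after robust multi-array averaging (RMA). A probe set's brightness depends on its own sequence, so levels are compared between pools and never between genes. Without detection calls, nothing is said on whether Cd48 or another marker that the gate should exclude lay above background. Sca-1 itself (Ly6a) had no probe set with exactly 1 gene symbol and has no value here. Array medians lay between 5.93 and 6.01, and the pools correlated at a Pearson's r of 0.983 to 0.990 across genes, which are not independent replicates. The pan-haematopoietic antigen Ptprc (CD45) stood at 12.62 and 12.52 in deficient pools and at 12.92 and 12.71 in wild type pools. Of the genes deleted in 1 group only, Rbl2 (p130) differed by -0.83 (SE 0.19) and Rb1 by 0.29 (SE 0.16), on the log2 scale. Rbl1 (p107) differed by -0.96 (SE 0.30), although by label it is -/- in both groups, so its deletion is not what separates them. Where these probe sets lie relative to the deleted parts is not known from the labels, and they are no check of the genotypes.

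No member passed limma's threshold of an adjusted p under 0.05 over all genes, and neither did any other gene (0% of 18193 called, lowest adjusted p = 0.326). At an unadjusted p under 0.05 there were 3 members, with Procr and Cd34 lower and Ctnnal1 higher in deficient pools, where 6.23% of all genes were called. By direction, 2.19% of all genes were called higher and 4.04% lower at that level, a split of 399 higher to 735 lower that became 601 to 530 when each array was centred on its median over genes and 298 to 1009 when centred on its median over probe sets. Ctnnal1 was no longer called at that level with specific probe sets first (difference -0.0118) or with a gene's probe sets averaged (0.37). The groups did not overlap for 6 of the 10 members, against 35.5% of all genes. Procr, Cd34, Kit, Ly9 and Fgd5 were lower in both deficient pools than in both wild type pools, against 18.5% of all genes, and Ctnnal1 was higher in both, against 17% of all genes. Kit was lower by its brighter probe set only, and its dimmer one was higher in both deficient pools. Among the 9097 genes kept when dim genes were left out, 26.5% were lower in both deficient pools and 10.7% higher. With arrays centred on their median over genes, Kit and Fgd5 overlapped and Flt3 no longer did, which left 3 members lower and 2 higher. Slamf1, Cd48, Cd244 and Flt3 overlapped between the groups as deposited.

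**Figure D1:**
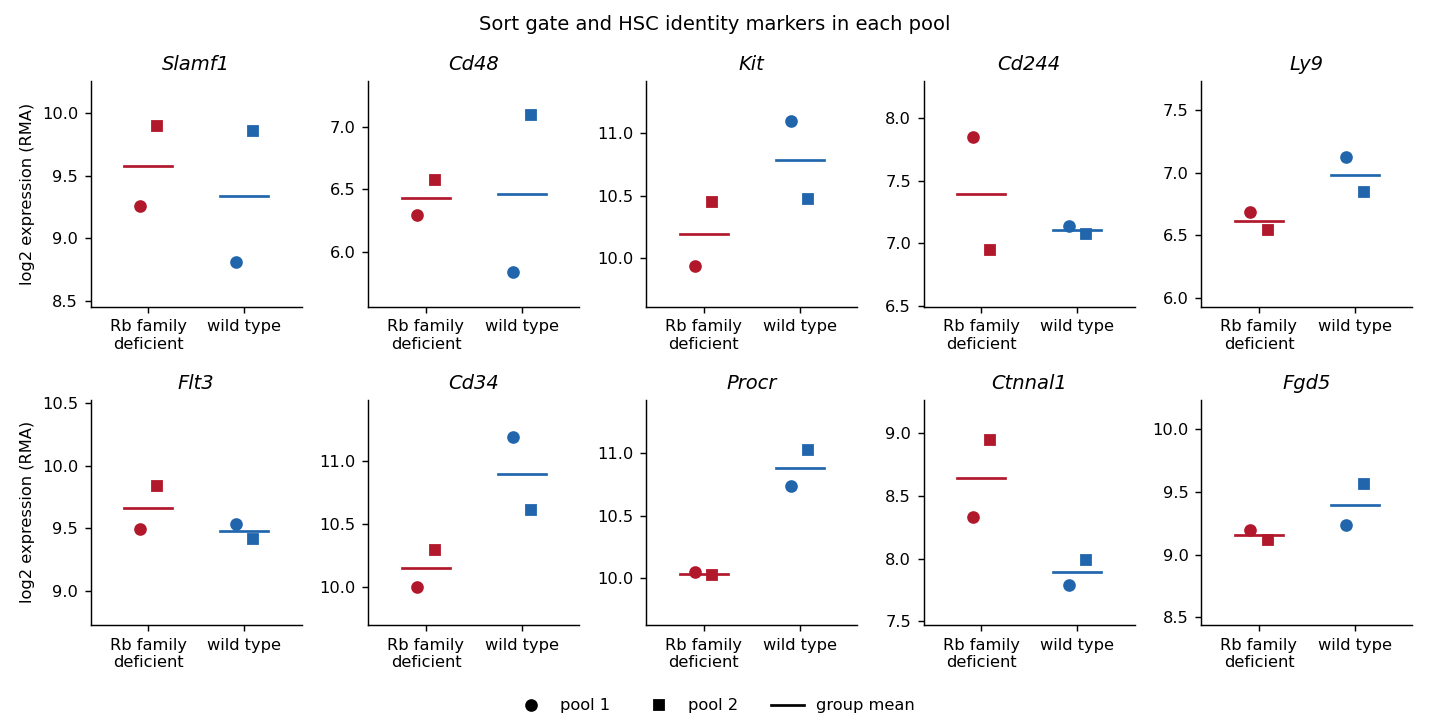
Log2 expression (RMA, vertical axis, the same span of 1.8 in every panel) of the 10 genes in Rb family deficient pools (left, red) and wild type pools (right, blue), with circles for pool 1, squares for pool 2 and bars for group means. Procr, Cd34, Kit, Ly9 and Fgd5 have both red points below both blue points, and Ctnnal1 has both above. Each gene is drawn by its brightest probe set, and the dimmer Kit probe set, not drawn, separated the groups the other way.

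Among the gate genes, Slamf1, which encodes the CD150 antigen that the sort selects for, stood at log2 values of 9.26 and 9.90 in deficient pools and 8.81 and 9.86 in wild type pools. Wild type pool 1 was the lowest and the other wild type pool nearly as high as the highest deficient pool, so the groups overlapped. The mean was 9.58 ± 0.45 in deficient pools and 9.33 ± 0.74 in wild type pools (SD, n = 2 each), a difference of 0.24 (SE 0.40, 95% interval -0.77 to 1.26, limma adjusted p = 0.941). The sign turned to -0.08 when deficient pool 2 was left out and to -0.28 when wild type pool 1 was. The second Slamf1 probe set had 7.59 and 8.33 in deficient pools against 7.15 and 7.69 in wild type pools, or 0.53 higher (SE 0.32), and the dimmest differed by -0.07 (SE 0.16).

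Cd48 encodes the glycosylphosphatidylinositol-anchored SLAM family ligand that the sort selects against. It stood at 6.29 and 6.57 in deficient pools and at 5.84 and 7.09 in wild type pools, so that both deficient pools lay between the wild type ones. The difference of means was -0.03 (SE 0.42, limma adjusted p = 0.996), and its 95% interval of -1.09 to 1.03 leaves room for a change of about the same size as the gap between the wild type pools. Cd48 turned above 0 without deficient pool 1 (0.11), without wild type pool 2 (0.59) and with arrays centred on their median over genes (0.02).

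Kit encodes the receptor for stem cell factor, the antigen behind the K of the gate. Its brighter probe set had 9.94 and 10.45 in deficient pools and 11.09 and 10.47 in wild type pools. The higher deficient pool lay just under the lower wild type pool, and the difference was -0.59 (SE 0.28, 95% interval -1.31 to 0.13, limma adjusted p = 0.809). The dimmer probe set went the other way, with 6.82 and 7.70 in deficient pools against 6.80 and 6.66 in wild type pools, a difference of 0.53 (SE 0.31). By that probe set both deficient pools lay above both wild type pools, the lower one just barely. The mean of both probe sets gave -0.03, so the direction of Kit depends on the probe set. Without wild type pool 1 the brighter probe set differed by -0.28 and without deficient pool 1 by -0.34.

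**Figure D2:**
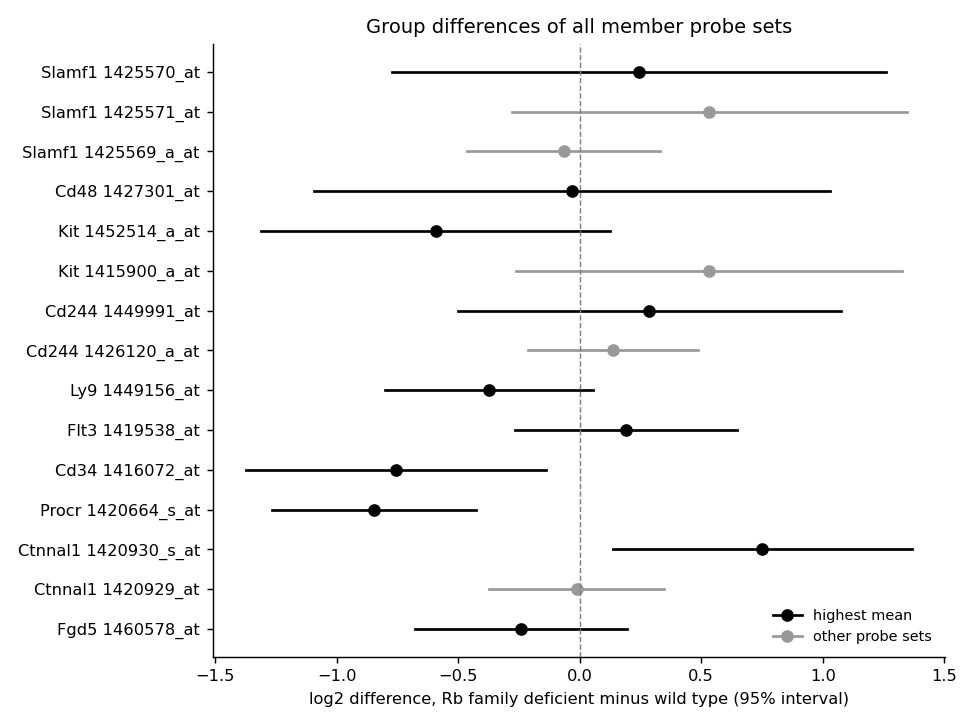
Log2 difference (horizontal axis), Rb family deficient minus wild type, and its 95% interval from limma for all 15 probe sets of the 10 genes, black for the brightest probe set of each gene and grey for the others. The intervals of Procr, Cd34 and the brighter Ctnnal1 probe set do not cross 0, and those of the Kit probe sets lie on opposite sides with both crossing it.

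CD244 and CD229 (Ly9) are SLAM family receptors that were not part of the gate. Cd244, which encodes a receptor for CD48 that is used to mark multipotent progenitors, had 7.85 and 6.94 in deficient pools and 7.14 and 7.07 in wild type pools. Deficient pool 1 alone stood high, and the other deficient pool was the lowest of the 4. The difference of 0.29 (SE 0.31, limma adjusted p = 0.901) became -0.16 without deficient pool 1. The dimmer Cd244 probe set had 5.90 and 5.92 in deficient pools against 5.73 and 5.81 in wild type pools, a difference of 0.14 (SE 0.14).

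Ly9, a homophilic receptor used to subdivide stem and multipotent cells, had 6.68 and 6.54 in deficient pools and 7.12 and 6.84 in wild type pools. Both deficient pools were below both wild type pools, by 1.29-fold on average (log2 difference -0.37, SE 0.17, 95% interval -0.80 to 0.06, limma adjusted p = 0.802). With any 1 pool left out the Ly9 difference ran from -0.51 to -0.23. In RefSeq gene order on mouse assembly GRCm38.p6, Cd244, Ly9, Slamf7, Cd48, Slamf1 and Cd84 lie near each other on chromosome 1, with Tma7-ps between Cd48 and Slamf1. The 6 SLAM genes of that stretch showed differences of both signs, from -0.37 for Ly9 to 0.32 for Slamf7.

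On the progenitor side, Cd34 encodes a sialomucin that is low on the surface of long-term stem cells and higher on multipotent progenitors. It had 9.996 and 10.30 in deficient pools and 11.19 and 10.61 in wild type pools, with no overlap. The mean was 10.15 ± 0.21 in deficient pools and 10.90 ± 0.41 in wild type pools (SD, n = 2 each), 1.69-fold lower (log2 difference -0.76, SE 0.24, 95% interval -1.37 to -0.14, limma adjusted p = 0.761). Of all genes, 2.04% differed by at least as much in either direction. Cd34 differed by -0.47 without wild type pool 1, by -1.04 without wild type pool 2 and by -0.61 and -0.90 without deficient pools 1 and 2.

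Flt3 encodes the cytokine receptor whose surface appearance marks the loss of long-term self-renewal. It had 9.49 and 9.84 in deficient pools and 9.54 and 9.42 in wild type pools. Only deficient pool 2 stood above both wild type pools. The difference was 0.19 (SE 0.18, 95% interval -0.26 to 0.64, limma adjusted p = 0.886) and was 0.02 without that pool and 0.36 without the other deficient pool.

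Among the identity markers, Procr had the lowest p of the 10 genes. It encodes the endothelial protein C receptor, a surface marker of long-term HSC. Its values were 10.05 and 10.03 in deficient pools and 10.74 and 11.03 in wild type pools. The deficient pools were nearly equal, and both lay well under the lower wild type pool. The mean was 10.04 ± 0.02 in deficient pools and 10.88 ± 0.20 in wild type pools (SD, n = 2 each), 1.80-fold lower (log2 difference -0.85, SE 0.17, 95% interval -1.26 to -0.43, limma adjusted p = 0.761), and 1.33% of all genes differed by at least as much. With a pool left out the difference ran from -0.99 to -0.70. Procr had 1 probe set, with an _s_at name, which means that its probes can match more than 1 transcript.

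Ctnnal1 encodes alpha-catulin, a relative of alpha-catenin whose locus drives a reporter used to see HSC in the marrow. It had 8.33 and 8.95 in deficient pools and 7.79 and 7.99 in wild type pools. Both deficient pools were above both wild type pools, 1.68-fold on average (log2 difference 0.75, SE 0.24, 95% interval 0.14 to 1.37, limma adjusted p = 0.761), and 2.11% of all genes differed by at least as much. The value was 0.44 without deficient pool 2 and 1.06 without deficient pool 1. It comes from an _s_at probe set. The only other Ctnnal1 probe set is much dimmer and had 4.20 and 4.15 in deficient pools against 4.25 and 4.13 in wild type pools, a difference of -0.01 (SE 0.14).

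Fgd5 encodes a guanine nucleotide exchange factor for CDC42 whose expression within the marrow labels HSC. It had 9.20 and 9.12 in deficient pools and 9.24 and 9.56 in wild type pools. The groups were separated only narrowly, and the difference was -0.24 (SE 0.17, 95% interval -0.68 to 0.20, limma adjusted p = 0.854). It was -0.08 without wild type pool 2 and -0.40 without wild type pool 1. The 3 identity markers thus gave 3 patterns, Procr lower by a gap wider than that between pools of either group, Ctnnal1 higher by its brighter probe set, and Fgd5 with a difference under the gap between the wild type pools.

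The bases just before the annotated start of 4 genes are shown because Procr, Cd34 and Ctnnal1 had the lowest p and Kit alone held an E2F-type match. Pocket proteins act on genes through E2F factors and, with the MuvB core, through the cell cycle homology region (CHR). Sequences are from RefSeq on GRCm38.p6, 250 bases, 5′ to 3′ on the gene's strand, in lower case with motif matches in capitals. Procr is chr2:155750967-155751216 (plus strand), Cd34 chr1:194938571-194938820 (plus strand), Ctnnal1 chr4:56865212-56865461 (minus strand) and Kit chr5:75574737-75574986 (plus strand).
Procr: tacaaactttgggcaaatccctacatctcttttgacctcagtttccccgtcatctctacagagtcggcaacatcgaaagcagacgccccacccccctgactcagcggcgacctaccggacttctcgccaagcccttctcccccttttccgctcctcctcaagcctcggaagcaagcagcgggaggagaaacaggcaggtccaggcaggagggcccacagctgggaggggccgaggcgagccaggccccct
Cd34: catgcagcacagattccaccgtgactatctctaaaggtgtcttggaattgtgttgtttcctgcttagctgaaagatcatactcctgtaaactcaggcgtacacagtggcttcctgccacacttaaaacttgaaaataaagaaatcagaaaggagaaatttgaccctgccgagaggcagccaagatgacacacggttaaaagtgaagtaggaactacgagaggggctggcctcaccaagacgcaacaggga
Ctnnal1: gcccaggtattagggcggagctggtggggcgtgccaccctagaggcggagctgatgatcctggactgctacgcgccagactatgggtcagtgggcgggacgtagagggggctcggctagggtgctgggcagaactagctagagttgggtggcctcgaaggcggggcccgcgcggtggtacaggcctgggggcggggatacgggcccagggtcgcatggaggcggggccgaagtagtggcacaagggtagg
Kit: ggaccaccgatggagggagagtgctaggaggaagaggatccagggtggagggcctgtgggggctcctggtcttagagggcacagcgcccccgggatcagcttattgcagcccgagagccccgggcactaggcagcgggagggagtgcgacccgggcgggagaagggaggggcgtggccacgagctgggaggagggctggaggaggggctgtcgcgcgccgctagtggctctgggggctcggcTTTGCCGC
Motifs were searched on both strands as exact letters. E2F was TTTCCCGC, TTTCGCGC, TTTGCCGC or TTTGGCGC, held by 1.86% of 32851 promoter windows of the same length. CHR was TTTGAA (15.99%), GATA was AGATAA (9.99%), ETS was CCGGAAG (6.91%) and RUNX was TGTGGT (14.05%), and none of these overlapped another in the members' windows. Of 9 members with a promoter window (Ly9 was not listed), Kit held TTTGCCGC and Cd48 held TTTGAA and TGTGGT. In the Kit window shown the match ends at the base before the start. Kit had a second annotated start, with the window chr5:75574741-75574990, in which the same match begins at base -12. In the windows of the other members these letters were not found, which describes those windows alone. The GC content was 61.6% for Procr, 46.4% for Cd34, 68.4% for Ctnnal1 and 70.8% for Kit.

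Gaps between pools of 1 group are given beside the group differences. A group difference is one between means of 2 pools, which vary less than single pools. The gaps are therefore expected to be the larger even without a group effect. For Slamf1, Cd48, Kit, Cd244, Flt3 and Fgd5, the group difference was smaller than the wider of the gaps between pools of 1 group. The share of all genes for which this held was not counted, so it does not set these genes apart. Cd48 differed by 1.25 between the wild type pools, or 2.39-fold, with pool 2 the higher, and 0.978% of all genes differed by at least as much there. Slamf1 differed by 1.04 in the same direction, a gap reached by 2.00% of genes. In the deficient pools, Cd244 was lower in pool 2 by 0.90, a gap reached by 1.77% of genes, and Slamf1 was higher in pool 2 by 0.64. The median absolute gap over all genes was 0.18 between deficient pools and 0.20 between wild type pools. The median absolute group difference over all genes was 0.15, which is between means of 2 pools and so not on the same footing. The mRNAs for the antigen that the gate selects for and the antigen it selects against thus both stood higher in wild type pool 2 than in wild type pool 1.

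**Figure D3:**
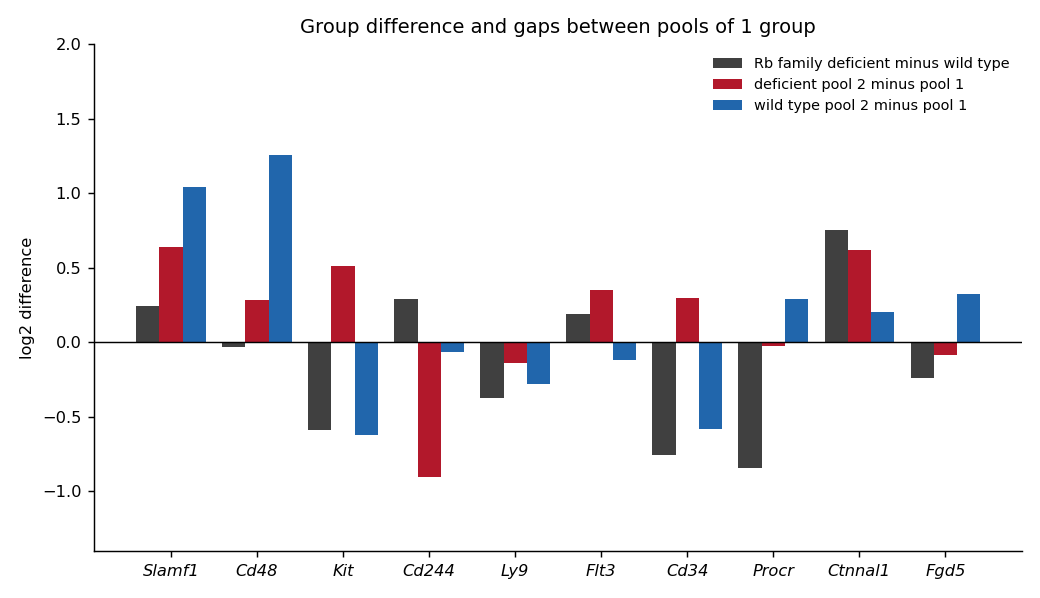
Log2 differences (vertical axis) for each of the 10 genes, with grey bars for Rb family deficient minus wild type, red for deficient pool 2 minus pool 1 and blue for wild type pool 2 minus pool 1. Grey bars reach past both coloured bars for Procr, Cd34, Ctnnal1 and Ly9 only. Grey bars are differences between means of 2 pools, which vary less than the single pools behind the coloured bars.

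Markers of granulocyte-monocyte progenitors, which the gate should leave out, varied with the pools too. Mpo (myeloperoxidase) had 10.72 and 12.83 in deficient pools and 10.71 and 12.60 in wild type pools. Elane (neutrophil elastase) had 6.84 and 9.60 in deficient pools against 5.56 and 9.50 in wild type pools. Prtn3 (proteinase 3) had 12.01 and 12.55 in deficient pools against 11.02 and 12.32 in wild type pools. Of 8 measured genes on that list 7 were above 0 in the group comparison, with a median of 0.65 and 0 at an unadjusted p under 0.05, and pool 2 exceeded pool 1 by a median of 1.31 in deficient and 1.94 in wild type pools. The summed level of the list was 12.97 and 14.34 in deficient pools and 12.25 and 14.08 in wild type pools on the log2 scale. Leaving out wild type pool 1 gave a list median of -0.23, leaving out wild type pool 2 gave 1.73, and leaving out deficient pool 2 gave 0.34. Slamf1, Cd48, Mpo, Elane and Prtn3, the last 3 being the first on their list, were higher in pool 2 of each group. Not all of the list did so, since pool 2 minus pool 1 was -0.02 for Fcgr3, -0.06 for Csf3r and -0.33 for Irf8 in deficient pools, and -0.69 for Csf3r in wild type pools. The part of those markers in the values of Slamf1 and Cd48 was not tested.

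**Figure D4:**
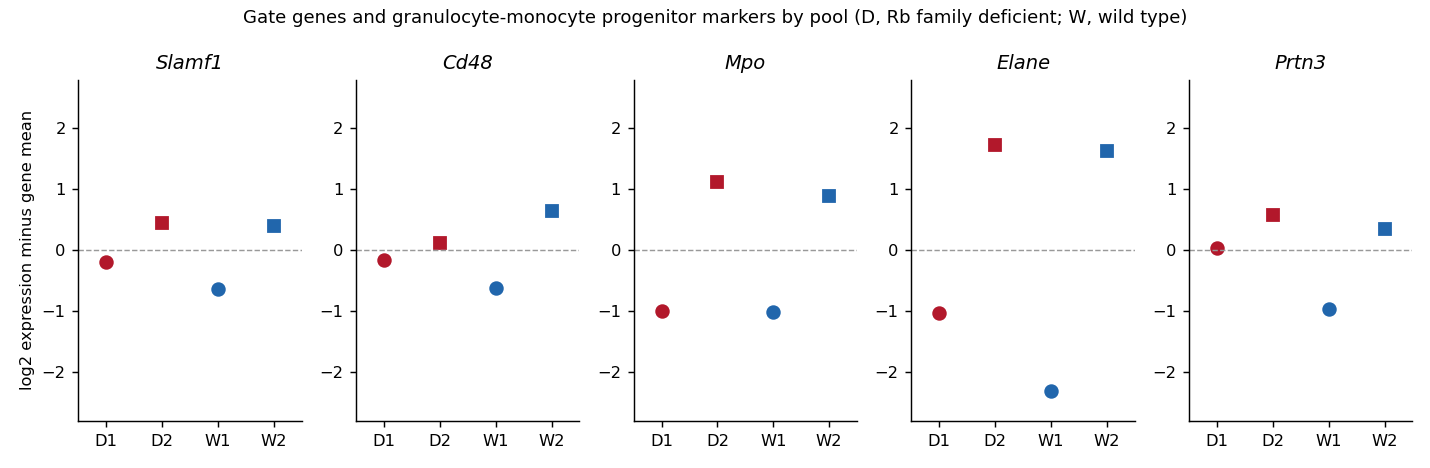
Log2 expression minus the gene's mean over the 4 arrays (vertical axis) for Slamf1 and Cd48 of the gate and for Mpo, Elane and Prtn3, in Rb family deficient pools 1 and 2 (D1, D2, red) and wild type pools 1 and 2 (W1, W2, blue). Pool 2 (squares) lies above pool 1 (circles) in both groups for these 5 genes, while Fcgr3, Csf3r and Irf8 of the same progenitor list, not drawn, were lower in pool 2 of the deficient group.

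No neutrophil marker passed the adjusted threshold. Of 9 measured genes 9 were above 0, with a median of 0.98 that was 0.38 without wild type pool 1 and 1.61 without wild type pool 2. For 6 of the 9 both deficient pools were higher, against 17% of all genes, and S100a9, Camp and Ltf overlapped, while pool 2 minus pool 1 had a median of -0.75 in deficient and 0.61 in wild type pools. S100a8 had 14.28 and 13.61 in deficient pools against 12.36 and 13.56 in wild type pools. The matrix metalloproteinase gene Mmp8 differed by 2.24 (SE 0.60), Mmp9 by 1.56 (SE 0.52) and Lcn2 by 1.30 (SE 0.45), with a limma adjusted p = 0.761 for Mmp8. The summed level was 16.04 and 15.38 in deficient pools and 14.27 and 15.39 in wild type pools. The control probe sets of beta-actin had a 3' minus 5' difference, a sign of RNA quality, of 3.13 and 2.95 in deficient pools and 2.32 and 2.81 in wild type pools. Those of Gapdh had 2.79 and 2.50 in deficient pools and 2.40 and 2.58 in wild type pools, which overlap. The Y-linked gene Eif2s3y had 8.496 and 9.64 in deficient pools and 9.93 and 10.29 in wild type pools. Kdm5d, also Y-linked, had 6.12 and 7.86 in deficient pools and 8.26 and 8.37 in wild type pools. Xist had 13.28 and 13.05 in deficient pools and 13.06 and 12.72 in wild type pools, which overlap. The part of any of these in the lower Procr and Cd34 and the higher Ctnnal1 was not tested.

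The lists of other cell types gave medians between 0.05 and 0.69. On the list of lineage surface markers 5 of 6 measured genes were above 0 (median 0.06), of macrophage markers 7 of 10 (0.05), of dendritic cell markers 4 of 6 (0.17), of erythroid markers 5 of 7 (0.19), of megakaryocyte markers 3 of 6 (0.08), of B cell markers 7 of 7 (0.26), of T and NK cell markers 8 of 8 (0.06), of mast cell and basophil markers 3 of 4 (0.69), and of endothelial and stromal markers 8 of 9 (0.15). Over all genes 49.2% were above 0, with a median of -0.00376. That share covers bright and dim genes, and most of these markers are dim. Of all genes, 17% were higher in both deficient pools and 18.5% lower, against 10.7% and 26.5% with dim genes left out. That filter left no lineage surface, endothelial or stromal marker. It left only Nkg7 (0.30) of the T and NK cell list and only Cd79b and Vpreb1 of the B cell list (median 0.43). The part of brightness in these counts was not tested. Single genes of these lists at an unadjusted p under 0.05 were Gp1bb (megakaryocytes, 1.17, SE 0.19), H2-Aa (dendritic cells, -1.02, SE 0.36) and Car2 (erythroid cells, -0.56, SE 0.19). At that level 2.19% of all genes were called higher and 4.04% lower. H2-Ab1, also of the dendritic cell list, differed by -0.81 (SE 0.42). Without wild type pool 1 the sign of the median turned for macrophages (-0.16), erythroid cells (-0.36), B cells (-0.14) and mast cells and basophils (-0.12). It turned for erythroid cells without deficient pool 1 (-0.04), for megakaryocytes without deficient pool 2 (-0.06), for macrophages with arrays centred on their median over probe sets (-0.01) and for dendritic cells with dim genes left out (-0.92). No list had a member past the adjusted threshold.

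The members' own relatives and partners showed no common direction. Of the other SLAM and CD2 family receptors 4 of 6 were below 0, with a median of -0.21. Slamf8 differed by -0.49 (SE 0.24), Cd84 by -0.32 (SE 0.32), Slamf6 by -0.24 (SE 0.17) and Slamf7 by 0.32 (SE 0.18), with 0 of the 6 at an unadjusted p under 0.05. Of 5 measured adapters and effectors of SLAM signalling 4 were below 0, with a median of -0.08. The lipid phosphatase gene Inpp5d (SHIP1) had 9.91 and 10.11 in deficient pools against 10.87 and 10.27 in wild type pools, a difference of -0.56 (SE 0.24). The tyrosine phosphatase gene Ptpn6 (SHP-1) differed by -0.50 (SE 0.21), while the kinase gene Fyn and the adapter gene Sh2d1a (SAP) differed by 0.14 (SE 0.26) and -0.08 (SE 0.22).

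Paralogs, ligands and signalling partners of KIT and FLT3 were split, 8 of 13 above 0 with a median of 0.03. Pdgfrb, a receptor tyrosine kinase of the same class, had 9.59 and 9.66 in deficient pools and 8.87 and 8.32 in wild type pools, 1.03 higher (SE 0.22, limma adjusted p = 0.761). It was 0.32 with specific probe sets first and 0.67 when probe sets were averaged. The RAS exchange factor gene Sos1 differed by -0.43 (SE 0.16), or by 0.01 when its probe sets were averaged. Around EPCR, 5 of 10 measured genes of the protein C pathway were above 0, with a median of 0.05. Thbd, which encodes thrombomodulin, the cofactor for protein C activation, had 6.52 and 6.56 in deficient pools against 6.20 and 6.14 in wild type pools, a difference of 0.37 (SE 0.14), opposite in sign to Procr.

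Of 5 measured sialomucins and selectins related to CD34, 3 were above 0 (median 0.03). P-selectin (Selp) had 9.14 and 9.21 in deficient pools and 8.67 and 7.39 in wild type pools, a difference of 1.15 (SE 0.42), or 0.50 without wild type pool 2. Of 6 FGD exchange factors and CDC42, 3 were below 0 (median -0.09), and Fgd2 differed by -0.55 (SE 0.15), with 7.02 and 7.21 in deficient pools against 7.69 and 7.63 in wild type pools. The alpha-catenin family and partners had a median of -0.01 over 5 genes. Ctnna3 differed by 0.18 (SE 0.15), Ctnnb1 (beta-catenin) by -0.19 (SE 0.16), Ctnna2 by -0.08 (SE 0.19) and Akap13 by -0.01 (SE 0.25).

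**Figure D5:**
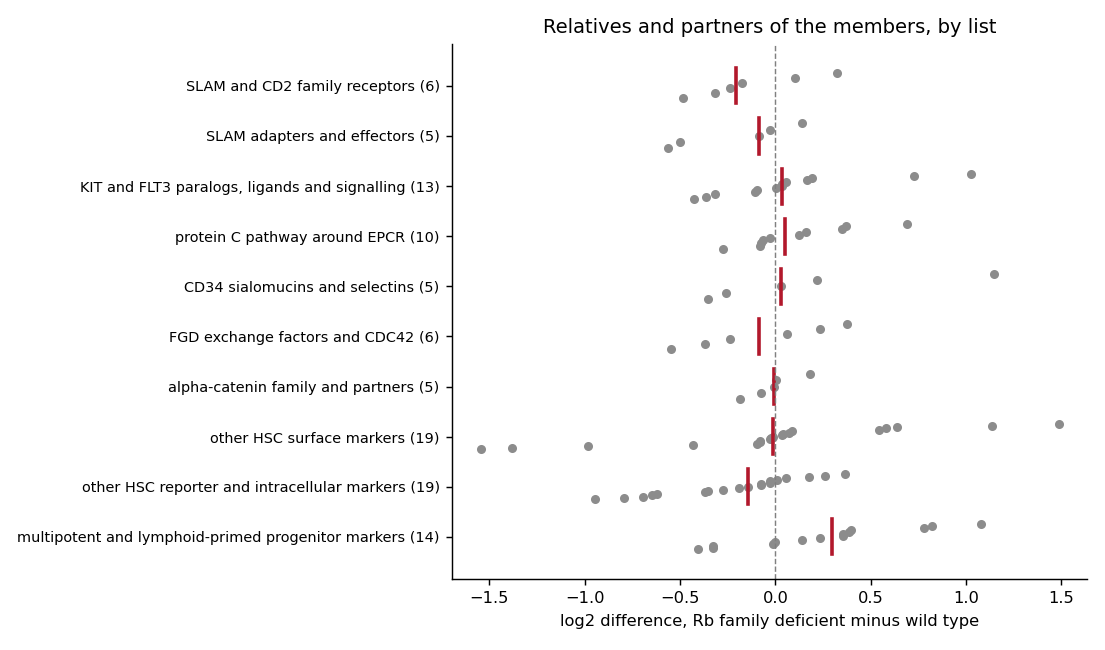
Log2 difference, Rb family deficient minus wild type (horizontal axis), of each measured gene (grey points) on 10 lists of relatives, partners and further markers, with the number of genes in brackets and the list median as a red bar. Medians lie between -0.21 and 0.30, and single genes of the HSC surface list spread from -1.54 to 1.49.

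Other HSC markers fell on both sides. Of 19 measured surface markers, 9 were above and 10 below 0 with a median of -0.01, with 2 of those above and 4 of those below at an unadjusted p under 0.05, where 2.19% and 4.04% of all genes were called. The angiopoietin receptor relative Tie1 had 5.22 and 5.88 in deficient pools and 7.85 and 6.34 in wild type pools, a difference of -1.54 (SE 0.53). Neogenin (Neo1) differed by -1.38 (SE 0.54), the C-type lectin gene Clec1a by -0.98 (SE 0.25) and the junctional adhesion gene Jam3 by -0.43 (SE 0.17). Averaged over probe sets these were -0.41 for Neo1, -0.47 for Clec1a and -0.18 for Jam3, and Neo1 ran from -2.09 to -0.68 with a pool left out. Tie1 was -0.79 without wild type pool 1. On the higher side were Thy1, with 8.25 and 8.54 in deficient pools against 7.89 and 6.62 in wild type pools (1.14, SE 0.43, or 0.50 without wild type pool 2), and the adhesion molecule gene Alcam (0.58, SE 0.17).

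Of 19 measured reporter and intracellular markers, 14 were below 0 with a median of -0.14, and at an unadjusted p under 0.05 stood 4, all of them lower, against 4.04% of all genes called lower. The calcium channel gene Trpc6 differed by -0.95 (SE 0.21), Mycn by -0.79 (SE 0.19), Mecom, a transcription factor needed to keep HSC, by -0.69 (SE 0.16) and lymphotoxin beta (Ltb) by -0.65 (SE 0.15). Averaging probe sets brought Mycn to -0.34 and Mecom to -0.32. This list was assembled with the lower values of Trpc6, Mecom and Ltb already known, so its count is not independent of them. Leaving out deficient pool 1 or deficient pool 2 gave a median of -0.01 or -0.41.

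Multipotent and lymphoid-primed progenitor markers had a median of 0.30, with 9 of 14 above 0, and an unadjusted p under 0.05 was seen for 1 above and 1 below 0 (2.19% and 4.04% of all genes). The tetraspanin gene Cd53 had 10.35 and 9.87 in deficient pools and 9.01 and 9.55 in wild type pools (0.82, SE 0.26), and embigin (Emb) differed by -0.41 (SE 0.15). Leaving out deficient pool 1 or wild type pool 1 brought the median to 0.02. With Flt3 at 0.19 and Cd34 at -0.76, the progenitor-side members themselves also differed in sign.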

How the data were processed

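The authors deposited 1 log2 value for each probe set on each array, made with RMA, per the submitters' processing notes, which also name limma; their versions and settings are not known here. That the scale is log2 follows from the range of the values. RMA gives all arrays nearly the same distribution, so cells with more or less RNA in total would look alike, and it compresses folds of dim probe sets. Precision is limited by having 4 arrays.

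Of 45101 probe sets, 64 were array controls, 34945 had exactly 1 gene symbol, 932 several and 9160 none listed. Symbols were updated by Entrez ID with a RefSeq table (GRCm38.p6), which held 34741 of them. Differences (Rb family deficient minus wild type) were fitted with limma 3.58.1 in R 4.3.3 (lmFit, eBayes) over 18193 genes, and for further probe sets over 45037 probe sets, with Benjamini-Hochberg adjustment. SEs are moderated. The fit was tested on simulated data. Groups came from sample titles, and nothing states that equal pool numbers mark a pair. Their deviations from the group means correlated at -0.19 over genes.

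The members and lists were chosen with earlier results of these data known. On the lists of relatives, partners and HSC or multipotent progenitor markers, named genes are those at an unadjusted p under 0.05. Where a list had none, the 4 with the smallest p are named. The members, markers of granulocyte-monocyte progenitors and neutrophils, the deleted genes and Ptprc are named too. Genes added outside this rule, such as Eif2s3y as a check and other cell type markers at that p, are given as values. Alternatives covered centring, choice of probe set, dim genes, eBayes options, a replicate block and leaving out each pool.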

Additional observations from a re-analysis of the deposited data

How the results depend on the processing

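No gene, and so no member, passed the adjusted threshold in either direction under any alternative run (lowest member adjusted p = 0.458). Of 128 member values under alternatives, 121 kept their sign and 7 turned. Slamf1 turned to -0.08 and -0.28 without deficient pool 2 and wild type pool 1, and Cd244 to -0.16 without deficient pool 1. Cd48 turned to 0.11, 0.59 and 0.0223 without deficient pool 1, without wild type pool 2 and with centring on the median over genes. Ctnnal1 turned to -0.0118 with specific probe sets first. Of 497 values of 39 other named genes, 18 turned. With the mean of probe sets these were Akap13 (0.38), Slamf6 (0.0249) and Sos1 (0.00925), and with centring over genes Akap13 (0.0456). Without deficient pool 1 it was Akap13 (0.22). Without deficient pool 2 they were Ctnna2 (0.11), Sh2d1a (0.11), Fyn (-0.05), Elane (-0.69) and Mpo (-0.93). Without wild type pool 1 they were Akap13 (0.23), Fyn (-0.16), Elane (-1.28), Mpo (-0.82) and Prtn3 (-0.0413), and without wild type pool 2 Cd84 (0.0594), Ctnna2 (0.0188) and Sh2d1a (0.10). With 1 pool left out, values ran from -0.28 to 0.76 for Slamf1, -0.66 to 0.59 for Cd48, -0.16 to 0.74 for Cd244, -0.24 to 0.23 for Akap13, -0.69 to 0.0594 for Cd84, -0.26 to 0.11 for Ctnna2, -1.28 to 2.66 for Elane, -0.16 to 0.44 for Fyn, -0.93 to 1.18 for Mpo, -0.0413 to 1.26 for Prtn3 and -0.28 to 0.11 for Sh2d1a. A fit with a pool left out assumes that the lone pool varies like the other group.

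Genes at an unadjusted p under 0.05 numbered 399 higher and 735 lower, 601 and 530 with centring on the median over genes, 176 and 408 with dim genes left out (fewer genes tested, Cd48 and Ly9 among those dropped), and 244 to 689 and 317 to 1082 with 1 pool left out. With the replicate block they were 281 and 457, with 1 member called higher and 1 lower. The pool numbers are not known to pair, and with crossed numbers, added after seeing that same-numbered pools deviated in opposite directions, the counts were 518 and 1151. Centring on the median over probe sets, also added later, gave 298 higher and 1009 lower. Members that did not overlap were 5 lower and 1 higher (18.5% and 17% of all genes). They were 3 and 2 with centring over genes (13.6% and 24.7%) and 5 and 0 with specific probe sets first (18.8% and 17%). With probe sets averaged they were 4 and 1 (17.7% and 18%). With dim genes left out, Kit, Cd34, Procr and Fgd5 were lower and Ctnnal1 higher (26.5% and 10.7% of the 9097 genes kept). With centring on the median over probe sets the members were those of the main setting (25.1% and 11.9%). Except where stated, the cause was not tested.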
